A study of Mus musculus with 14 samples.

Results

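The rows described here are the m6A-RIP rows of genes that the peak tables of 2 RNA-binding proteins, Lin28a and Igf2bp3, did not list. A row is an enriched stretch of a transcript with its read count in each library. Rows were chosen by gene identifier alone: a row was taken when its gene had no row in the Lin28a-RIP table and none in the Igf2bp3-RIP table. This left 8581 of 18881 m6A rows, in 5223 of 9416 genes. They are called no-peak rows and no-peak genes below, which says that no peak was listed and not that the proteins were absent from the RNA. The other genes fell into 529 with Lin28a-RIP rows only, 1426 with Igf2bp3-RIP rows only and 2238 with rows in both tables.

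N6-methyladenosine (m6A) is a methyl mark on adenosines of mRNA and non-coding RNA, placed mainly by a complex around Mettl3, removed by Fto and Alkbh enzymes, and read by proteins that alter splicing, decay and translation. Igf2bp3 is one of these readers and is known to slow the decay of its target mRNAs. Lin28a, a protein of early embryos, blocks the maturation of a family of microRNAs and also binds many mRNAs. In m6A-RIP, also called MeRIP, fragments are pulled down with an antibody against m6A, so the count of a row rises with the amount of the RNA as well as with its methylation.

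The cells were cultured mouse muscle stem cells (MuSCs), the progenitors that rebuild muscle fibres, grown on Matrigel in serum-containing DMEM with no further treatment. Lin28a+ MuSCs were sorted from skeletal muscle of Lin28a-CreERT2; LSL-tdTomato mice, in which the Lin28a promoter drives an inducible Cre that switches on a red label, and the labels say of the control MuSCs only that their genotype is Control. Age and the number of animals were not given in the sources used here. Each group had 2 m6A-RIP, 2 input and 2 Igf2bp3-RIP libraries, and Lin28a-RIP was made from Lin28a+ MuSCs alone, with 2 libraries. The labels do not say whether the 2 libraries of a group came from separate cultures or animals, and the general statement on biological replicates in the study's methods is not tied to these libraries, so a p-value below measures only the spread between these libraries.

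The m6A-RIP counts summed to between 21350962 and 31830638 per library and the input values to between 4842915 and 6220960. Among markers of the labelled cell type, Myod1 was at 4542 to 4775 CPM (read counts scaled to a common total per library) in the 4 input libraries. Pax7 was at 139 and 154 CPM in control against 194 and 190 CPM in Lin28a+ libraries, and Myf5 at 441 and 464 CPM and at 198 and 202 CPM. The list of myogenic and satellite cell genes summed to 23823 and 24670 CPM in control and to 21306 and 21529 CPM in Lin28a+ libraries. Ptprc, a marker of blood cells, was at no more than 0.0704 CPM, Pecam1 of endothelium at no more than 0.501 CPM and Pdgfra of fibro-adipogenic progenitors at no more than 0.235 CPM. Summed over lists of markers, macrophage genes held 3.52 to 5.85 CPM, and 9 of 15 of them were not listed. The summed endothelial list was 2.66 to 2.96 CPM in control and 53.7 to 55.3 CPM in Lin28a+ libraries, with only 1 of its 6 listed genes above 1 CPM and with Cdh5 and Kdr not listed in the input. The list of pericytes and smooth muscle summed to between 7414 and 7600 CPM in control and between 9031 and 9047 CPM in Lin28a+ libraries, and that of fibro-adipogenic progenitors stood at 151 to 160 CPM in control and 80.2 CPM in both Lin28a+ libraries. Acta2, smooth muscle actin, carried the higher sum of the former, at 5311 and 5396 CPM in control against 7484 and 7495 CPM in Lin28a+ libraries, while Tagln was lower, at 278 and 293 CPM against 77.8 and 76.1 CPM, as was Des, at 1644 and 1728 CPM against 1195 and 1196 CPM. Schwann cell markers summed to 78.6 and 81.1 CPM in control against 127 and 130 CPM in Lin28a+ libraries, with 5 of 10 listed, and tenocyte markers, Scx among the 3 of 8 listed, to 116 and 121 CPM and to 175 and 177 CPM. The part of these differences in the results below was not tested.

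Of the 5223 no-peak genes, 4777 code for proteins, 267 are lncRNAs, 99 are microRNA genes, 60 are transcribed pseudogenes and 14 are snoRNAs. No-peak genes made up 55.5% of all genes with m6A rows, 54.8% of the protein-coding genes, 72.2% of the 370 lncRNAs and 74.1% of the 81 transcribed pseudogenes. Among microRNA genes the share was 47.4% of 209. The mature form of a microRNA is too short for this assay. Since the table gives no positions for rows, the RNA that the fragments counted for a microRNA gene come from was not checked. Of the 99 no-peak microRNA genes, 42 were higher and 17 lower in Lin28a+ MuSCs, and the median log2 fold change was 0.16. With total counts as the scaling the same genes gave 33 higher and 24 lower. Over all genes with m6A rows 32.5% were higher and 33.8% lower, and over all no-peak genes 42.0% and 20.6%, so the microRNA genes were near their class. Mir6356 had the most counts, at 2766 and 2759 CPM in control against 3108 and 3056 CPM in Lin28a+ libraries. Mature forms of the 4 that followed are printed to show what these loci encode, as RefSeq gives them for GRCm38.p6, 5′ to 3′, with the seed (bases 2 to 8) in capitals. The seeds all differ from each other.
mmu-miR-7067-3p (chr8:70895508-70895528, minus strand): uGAUUGCUucccuccccacag
mmu-miR-7067-5p (chr8:70895543-70895565, minus strand): uGCAGGGGgugguugcacacgga
mmu-miR-6390 (chr14:105623710-105623730, minus strand): gAAUUGAUcaggauguaacca
mmu-miR-6236 (chr9:110281353-110281371, plus strand): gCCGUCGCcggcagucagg
mmu-miR-141-3p (chr6:124717917-124717938, minus strand): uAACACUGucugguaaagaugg
mmu-miR-141-5p (chr6:124717959-124717980, minus strand): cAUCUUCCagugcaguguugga

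Mir7067, which holds the first pair, was at 1263 and 1315 CPM in control against 1334 and 1428 CPM in Lin28a+ libraries. Its log2 fold change was 0.20 (SE 0.0418, adjusted p = 0.00104), with no overlap between the groups. Mir141, of the miR-200 family that holds epithelial identity, was at 225 and 237 CPM in control against 287 and 292 CPM in Lin28a+ libraries. It rose by 0.43 on the log2 scale (SE 0.0425, adjusted p = 2.05e-06).

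No-peak genes carried fewer rows than the others. They had a mean of 1.64 rows per gene and at most 12, and 58.0% had a single row, whereas genes with rows in both protein tables had a mean of 2.73 rows, at most 24, and 31.0% with a single row. The RefSeq span of no-peak genes, from start to end with introns, had a median of 14.1 kb, against 23.8 kb with Lin28a-RIP rows only, 24.9 kb with Igf2bp3-RIP rows only and 44.1 kb with both. An input value was found for 4295 of the 5223 genes (82.2%), and for 88.8% to 90.8% of the genes of the other classes.

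The level of no-peak rows was alike in all 4 m6A-RIP libraries, as was that of rows of genes with Lin28a-RIP rows only. Rows of genes with Igf2bp3-RIP rows stood higher in control than in Lin28a+ MuSCs. The median of log2(CPM + 1) over no-peak rows was 3.97 and 3.99 in control and 3.96 and 3.97 in Lin28a+ libraries. Over rows of genes with a peak it was 4.27 and 4.29 in control and 3.93 and 3.94 in Lin28a+ libraries. All are on the scale of total counts, and none is divided by the width of rows, which the table does not give. No-peak rows held 40.0% and 39.8% of all m6A-RIP counts in control and 41.7% and 41.2% in Lin28a+ MuSCs, and these ranges did not overlap.

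The RNA level of no-peak genes was lower than that of genes with a peak, with a median input level of 4.31 on the log2(CPM + 1) scale against 4.70 for genes with a peak. The m6A-RIP level minus the input level of a gene had a median of 0.54 over no-peak genes, 0.53 with Lin28a-RIP rows only, 0.73 with Igf2bp3-RIP rows only and 0.81 with both. Under a minimum of 10 counts in all libraries of both assays, the median was 0.31 over no-peak genes and 0.64 over genes with a peak. When genes were ordered by input level and cut into 5 equal bins, no-peak genes made up 65.8% of the lowest bin and 47.2% to 53.4% of the other 4. In the lowest bin the m6A level over RNA had a median of 1.63 for no-peak genes and 2.46 for genes with both proteins. In the highest bin the 2 medians were -0.69 and -0.49. The m6A-RIP level of a gene sums its listed rows, whereas the input level counts the whole gene. No-peak genes had a mean of 1.64 rows against 2.73 with both proteins, and the part of this in the medians was not tested. These are descriptions of levels as counted, with no test between classes, since rows and genes are not replicates.

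Rows of no-peak genes were more often higher than lower in Lin28a+ MuSCs. Of 8581 rows, 3638 (42.4%) were higher and 1543 (17.98%) lower at an adjusted p under 0.05 in edgeR's quasi-likelihood test, with a median log2 fold change of 0.21. Over all 18881 rows, 61.8% were called, with 30% higher, 31.8% lower and a median of 0.002. The share higher was 41.0% for genes with Lin28a-RIP rows only, 21.6% for Igf2bp3-RIP rows only and 15.0% for both, and the share lower was 17.7%, 39.0% and 50.02%. No-peak rows thus stood with rows of genes that only the Lin28a-RIP table lists, whose median was 0.19, and apart from those with Igf2bp3-RIP rows, whose medians were -0.12 and -0.30. The fold changes were scaled by TMM, which puts the median of all rows near 0. With total counts as the scaling that median was -0.15, and 29.6% of no-peak rows were higher and 25.04% lower, with a median of 0.05. In the same setting 9.03% of rows of genes with both proteins were higher and 60.5% lower.

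**Figure D1:**
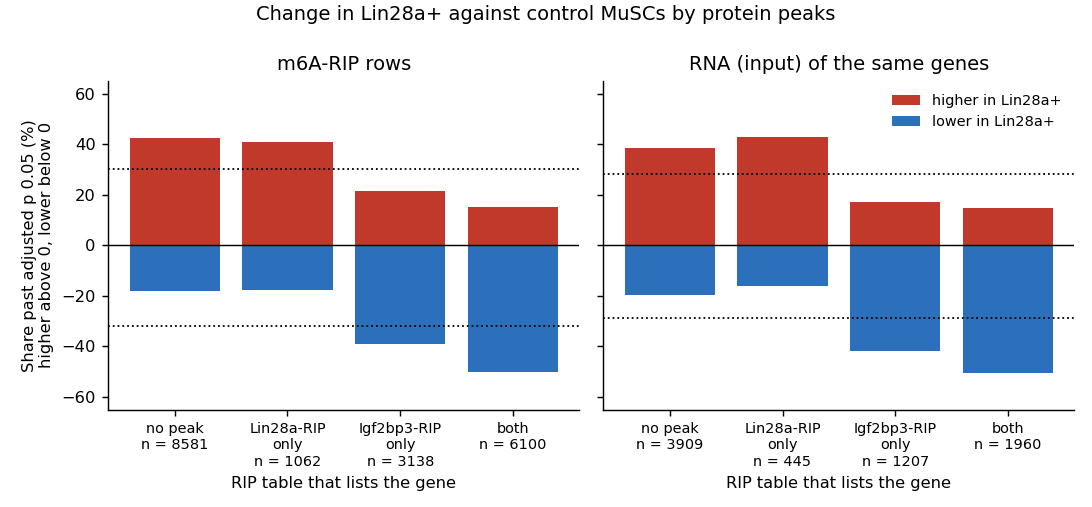
Share of m6A-RIP rows (left) and of the input RNA of their genes (right) that passed an adjusted p of 0.05, in percent, by the protein tables that list the gene; red bars above 0 are higher and blue bars below 0 lower in Lin28a+ than in control MuSCs. The dotted lines are the shares over all rows or genes tested; no-peak rows stand at 42.4% higher and 17.98% lower.

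Summed per gene, m6A-RIP was higher in 2193 and lower in 1078 of the 5223 no-peak genes, with a median log2 fold change of 0.16. Scaled by total counts, 1755 were higher and 1353 lower, with a median of 0.063. Over all 9416 genes 66.3% were called, 32.5% higher and 33.8% lower. Large changes occurred in both directions, with 537 no-peak rows over 2-fold higher and 578 over 2-fold lower among those called, of 749 and 1709 among all rows. With total counts the no-peak rows gave 382 and 713. In 2195 no-peak genes with at least 2 rows, 616 had all rows higher, 239 had all rows lower and 89 (4.05%) had a row in each direction. The last share was 4.71% with Lin28a-RIP rows only, 8.36% with Igf2bp3-RIP rows only and 7.57% with both, in classes that carry more rows per gene.

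RNA moved with m6A-RIP. In the input, 3909 no-peak genes passed the filter on low counts, and 1512 (38.7%) were higher and 762 (19.5%) lower, with a median log2 fold change of 0.17. Over all 11317 genes tested, 56.8% were called, 28.1% higher and 28.7% lower. Genes with Lin28a-RIP rows only had 42.9% higher and 16.2% lower, those with Igf2bp3-RIP rows only 17.1% and 41.8%, those with both 14.8% and 50.5%, and genes with no m6A row 25.9% and 24.2%. With DESeq2 the counts for no-peak genes were 724 higher and 385 lower, with a median of 0.16. Of the 3909 genes, 1255 were higher in both assays, 579 were lower in both, and 66 went in opposite directions (37 with m6A-RIP higher and RNA lower, 29 the reverse). Across these genes, which are not independent replicates, the fold changes of both assays had a Pearson r of 0.81 and a Spearman rho of 0.82.

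Changes of m6A-RIP beyond those of RNA were few. In 1 model of both assays, 123 of 3909 no-peak genes rose and 123 fell relative to input (3.15% each way), beside 7.26% called over all 7521 genes tested, with 3.32% higher and 3.94% lower. DESeq2 called 78 no-peak genes higher and 69 lower, beside 4.45% of all genes. The median difference in edgeR's fit was 0.0074 on the log2 scale. Genes with a peak had 3.52% higher and 4.79% lower, with a median of -0.03. Leaving out 1 library moved these counts of 123 by over 1.5 times, to between 71 and 76 higher without any one of the 4 input libraries, and to between 61 and 78 lower without either control input library or the first Lin28a+ input column.

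The change of no-peak genes fell off with their span. When genes were cut into 5 equal bins by span, the median m6A-RIP log2 fold change of no-peak genes was 0.25 in the bin of the shortest genes and then 0.21, 0.14, 0.05 and 0.04. For RNA the same bins gave 0.31, 0.22, 0.16, 0.04 and -0.18. Genes with both proteins ran below them in every bin, at -0.24, -0.14, -0.13, -0.30 and -0.50 for m6A-RIP, which was not a steady fall. Genes with Lin28a-RIP rows only stood near no-peak genes, at 0.11, 0.19, 0.25, 0.07 and 0.0048. Over all genes tested in the input, with their own bins of span, the RNA medians were 0.27, 0.18, 0.05, -0.13 and -0.39. No-peak genes made up 73.7% of the shortest bin and 36.1% of the longest. Within the 5 bins of RNA level the median m6A-RIP change was 0.13 to 0.21 for no-peak genes and -0.41 to -0.26 for genes with both proteins. For genes with Lin28a-RIP rows only it was -0.02 and 0.07 in the lowest bins and 0.18, 0.16 and 0.21 in the others, beside 0.21, 0.14 and 0.21 for no-peak genes. With total counts as the scaling the median m6A-RIP change over all genes moved from 0.007 to -0.09, a shift that puts the medians of no-peak genes in the 2 longest bins below 0. The part of gene length in the class difference was not tested beyond these bins.

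**Figure D2:**
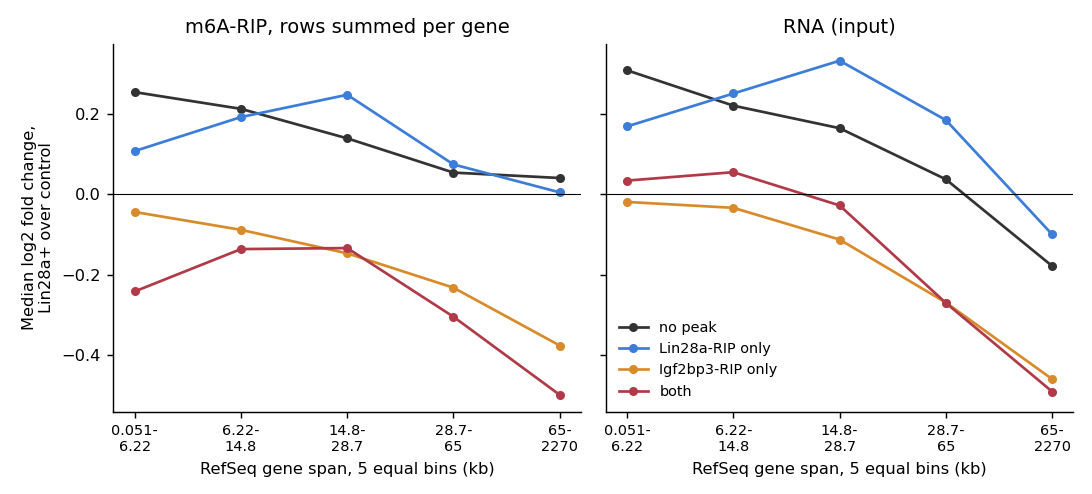
Median log2 fold change, Lin28a+ over control MuSCs, of m6A-RIP summed per gene (left) and of input RNA (right), in 5 equal bins of RefSeq gene span in kb; each line is a class of genes by the protein tables that list it. No-peak genes (black) go from 0.25 to 0.04 for m6A-RIP and from 0.31 to -0.18 for RNA, above genes with both proteins in every bin.

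Genes of the ribosomes and the respiratory chain were mostly without a peak, and those of the mitochondrial ribosome and the chain were mostly higher. The shares to read these against are 55.5% without a peak over all genes with m6A rows and, among no-peak genes, 42.0% higher and 20.6% lower (33.6% and 25.9% with total counts). The cytosolic ribosomal, mitochondrial ribosomal and respiratory lists hold short no-peak genes, with median spans of 3.25, 7.67 and 6.98 kb. In the 2 bins of the shortest genes, up to 14.8 kb, 73.7% and 69.8% had no peak. Of the no-peak genes there, 52.7% and 47.2% were higher and 16.4% and 17.5% lower. The part of span in these lists was not tested. Of 42 cytosolic ribosomal protein genes with m6A rows, 36 had no peak, and 21 of these were higher and 2 lower in m6A-RIP, with a median log2 fold change of 0.18. In RNA 30 of 34 tested were higher and 1 lower. Rps2, a protein of the small subunit, was at 668 and 671 CPM in control against 961 and 1027 CPM in Lin28a+ libraries. It rose by 0.67 on the log2 scale (SE 0.0415, adjusted p = 2.85e-08). Reads of these genes can be shared with processed pseudogenes, so single values are uncertain. With total counts the list gave 15 higher and 4 lower.

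Mitochondrial ribosomal proteins had 42 of 50 genes without a peak, 33 higher and 2 lower, with a median of 0.41. Mrpl46, a large-subunit protein, went from 65.3 and 67.1 CPM in control to 97.9 and 96.5 CPM in Lin28a+ MuSCs (log2 fold change 0.66, SE 0.049, adjusted p = 1.45e-07). Nuclear-encoded subunits of the respiratory chain had 48 of 58 genes without a peak, 37 higher and 4 lower, with a median of 0.32. Ndufb8 of complex I was at 108 and 107 CPM in control and at 157 CPM in both Lin28a+ libraries. Its log2 fold change was 0.65 (SE 0.0405, adjusted p = 3.18e-08), and that of its RNA was 0.64. Uqcrh of complex III, with 4 rows, had 1635 and 1668 CPM in control against 2011 and 2008 CPM in Lin28a+ libraries. Mitochondrial import and assembly factors had 19 of 34 genes without a peak, near the share of all genes, of which 13 were higher and 1 lower, and Tomm40, the pore of the outer membrane, rose by 0.47 (SE 0.040). With total counts these 3 lists gave 31 and 2, 30 and 5, and 8 and 2, higher and lower in that order. Relative to input, 6 of 34 cytosolic ribosomal genes fell and 1 rose, with a median of -0.11, beside 3.94% falling over all genes. Of the 42 mitochondrial ribosomal genes 2 fell, and of the 48 respiratory genes 1 rose and 2 fell.

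Histone genes had the largest median log2 fold change of the lists with 10 or more no-peak genes, at 1.22 with TMM and 1.12 with total counts. Of 26 with m6A rows, 24 had no peak, and 15 were higher and 6 lower. H1f0, a linker histone of resting cells, was at 406 and 398 CPM in control against 868 and 874 CPM in Lin28a+ libraries (log2 fold change 1.22, SE 0.037, adjusted p = 5.3e-11). H2ax, the variant phosphorylated at DNA breaks, went from 217 and 220 CPM to 503 and 515 CPM. H1f4, a linker histone of dividing cells, was at 17.4 and 17.1 CPM in control against 65.6 and 69.8 CPM in Lin28a+ libraries, a log2 fold change of 2.07 (SE 0.074). H2ac10, a core histone of the H2A family, was at 6.47 and 7.49 CPM in control against 31.8 and 29.7 CPM in Lin28a+ libraries. Relative to input, 5 of 21 histone genes tested fell and 1 rose, beside 3.94% falling and 3.32% rising over all genes. H1f2, one of the 5, was lower in both assays, and in m6A-RIP it went from 452 and 466 CPM to 284 and 276 CPM (log2 fold change -0.61, SE 0.040). Clustered histone genes are near-identical copies, so reads can be split or shared among them, and values of single core histone genes are uncertain.

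The promoters of 3 of these genes are printed, since these genes rose in both assays: H1f0 is outside the histone clusters, and the other two are inside the cluster of chromosome 13. They run from 250 bases before to 50 after the RefSeq start in GRCm38.p6, 5′ to 3′ on the strand of the gene. Capitals mark TATAAA and CCAAT on the strand shown and ATTGG, which is CCAAT on the other strand; TATAAA was searched on both strands too.
H1f0 (chr15:79027962-79028261, plus strand): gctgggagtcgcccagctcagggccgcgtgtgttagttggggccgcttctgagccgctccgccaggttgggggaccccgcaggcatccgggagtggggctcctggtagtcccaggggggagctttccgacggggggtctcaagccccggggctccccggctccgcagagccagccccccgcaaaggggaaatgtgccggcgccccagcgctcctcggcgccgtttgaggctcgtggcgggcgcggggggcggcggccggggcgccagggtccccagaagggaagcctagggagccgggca
H1f4 (chr13:23622509-23622808, minus strand): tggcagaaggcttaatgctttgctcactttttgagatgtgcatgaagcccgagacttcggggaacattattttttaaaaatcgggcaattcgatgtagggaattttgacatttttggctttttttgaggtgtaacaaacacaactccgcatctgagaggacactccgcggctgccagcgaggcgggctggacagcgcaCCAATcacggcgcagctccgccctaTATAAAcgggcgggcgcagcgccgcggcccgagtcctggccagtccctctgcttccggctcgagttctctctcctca
H2ac10 (chr13:23533625-23533924, plus strand): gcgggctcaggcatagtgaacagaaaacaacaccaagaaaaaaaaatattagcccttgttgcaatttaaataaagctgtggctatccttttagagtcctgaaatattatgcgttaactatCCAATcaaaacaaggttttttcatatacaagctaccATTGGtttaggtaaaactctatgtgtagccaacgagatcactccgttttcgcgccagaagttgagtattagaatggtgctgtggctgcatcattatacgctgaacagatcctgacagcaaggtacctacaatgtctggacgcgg

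The H1f4 window held 1 TATAAA and 1 CCAAT, the H2ac10 window 2 CCAAT, and the H1f0 window neither. Of the 14 histone genes that were higher in both assays, 12 had a promoter in the table, and 41.7% of those held TATAAA and 75% CCAAT on either strand. Among all 27025 promoters of the table the shares were 14.2% and 37.9%. The histone genes were chosen by their own changes, so these shares are a description. The same count over all no-peak genes was void, since only 77.8% of them matched a promoter, under the 80% set as the minimum.

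Genes of the cell cycle without a peak rose, apart from 3 that encode inhibitors of cyclin-dependent kinases, and those with a peak were also more often higher, with 15 higher and 7 lower of 26. Of 44 with m6A rows, 18 had no peak, and all 18 were called under TMM, total counts and DESeq2, 15 higher and 3 lower in both assays. The 3 that fell were Cdkn2a, Cdkn2b and Cdkn1a. Cdkn2a, which encodes the senescence-linked proteins p16 and p19Arf, was at 272 and 260 CPM in control against 49.6 and 47.7 CPM in Lin28a+ libraries (log2 fold change -2.35, SE 0.046, adjusted p = 1.29e-12). Its neighbour Cdkn2b went from 157 and 156 CPM to 43.5 and 42.4 CPM, and Cdkn1a, which encodes p21, from 1302 and 1327 CPM to 834 and 819 CPM. Cdkn2c, another such inhibitor, rose: it was at 39.2 and 37.9 CPM in control against 96.2 and 99.2 CPM in Lin28a+ libraries. Cdk1, the kinase of mitotic entry, rose from 125 and 131 CPM to 235 and 219 CPM (log2 fold change 0.93, SE 0.047, adjusted p = 4.58e-09). E2f2, a transcription factor of S phase entry, was at 3.39 and 3.37 CPM in control against 28.8 and 30.3 CPM in Lin28a+ libraries.

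Of 51 DNA repair genes, 15 had no peak (29.4%, against 55.5% of all genes). Of these, 8 were higher and 7 not called in m6A-RIP, and of the 36 with a peak 15 were higher and 11 lower. With total counts 8 were higher and 3 lower. Apex1, the main endonuclease at abasic sites, had the most counts, with 264 and 256 CPM in control against 316 and 313 CPM in Lin28a+ libraries (log2 fold change 0.37, SE 0.040, adjusted p = 4.1e-06). Ung, which removes uracil from DNA, was at 6.85 and 7.87 CPM in control against 17.4 and 16.8 CPM in Lin28a+ libraries. Ercc1, a nuclease subunit, had 154 and 157 CPM in control against 139 and 138 CPM in Lin28a+ libraries, with a TMM-scaled change of -0.06 that was not called, while its RNA rose by 0.79 (SE 0.115). Relative to input it fell by 0.85 (SE 0.135, adjusted p = 0.00286).

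Notch pathway genes with and without a peak went in different directions, as genes at large did. Of 24 with m6A rows, 12 had no peak, and 8 of these were higher and 4 not called. Among the 12 with a peak, 2 were higher and 8 lower, where all genes with a peak had 20.7% higher and 50.1% lower. With total counts the no-peak genes gave 7 higher and 2 lower, and with DESeq2 their RNA gave 3 higher in place of 8. No test of the difference between the classes was made. Among the targets of Notch, Heyl went from 5.94 and 4.45 CPM in control to 87.4 and 87.0 CPM in Lin28a+ MuSCs (log2 fold change 4.14, SE 0.10, adjusted p = 8.29e-12), Hey1 from 59.7 and 58.5 CPM to 143 and 156 CPM, and Hes1 from 98.7 and 95.3 CPM to 120 and 122 CPM. Dtx4, a ligase that acts on Notch, went from 17.3 and 19.0 CPM to 72.3 and 75.5 CPM. Rfng, which glycosylates Notch, had sums over 2 rows of 191 and 187 CPM in control against 186 and 178 CPM in Lin28a+ libraries. The sum was not called, whereas the RNA of Rfng rose by 0.48 (SE 0.051). Its row with the smallest p rose like the RNA, by 0.50 (SE 0.0705), from 36.3 and 39.6 CPM to 48.8 and 47.4 CPM.

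Among helix-loop-helix regulators, 12 of 17 had no peak, 7 higher and 4 lower under all 3 settings. Hes6, an inhibitor of Hes1, had the most counts and fell from 2373 and 2360 CPM to 1220 and 1209 CPM (log2 fold change -0.86, SE 0.033, adjusted p = 3.59e-10). Id3, which keeps E proteins from DNA, rose from 659 and 645 CPM to 821 and 827 CPM. Scx, a regulator of tendon cells, rose from 152 and 140 CPM to 316 and 319 CPM, and its RNA from 64.5 and 66.5 CPM to 138 and 145 CPM.

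Myogenic and satellite cell genes had 19 of 40 without a peak, all called, 7 higher and 12 lower in both assays, with a median m6A-RIP change of -0.38. Myog, the factor that starts terminal differentiation, was higher in Lin28a+ MuSCs, with 149 and 147 CPM in control and 531 and 540 CPM. The fusion peptide gene Mymx rose from 32.7 and 28.4 CPM to 104 and 96.8 CPM. Des, the muscle intermediate filament, fell from 298 and 301 CPM to 209 and 215 CPM (log2 fold change -0.40, SE 0.041, adjusted p = 2.71e-06), and its RNA fell by 0.53 on the log2 scale. The troponin T genes, whose proteins tie troponin to tropomyosin, went in different directions. Tnnt2, the cardiac and embryonic form, had the most rows, and all 12 were lower, with log2 fold changes of -2.74 to -2.20. Its sum was 1879 and 1872 CPM in control against 313 and 320 CPM in Lin28a+ libraries. Tnnt1, the slow skeletal form, had 9 rows, all higher by 1.40 to 1.71, with sums of 603 and 593 CPM in control against 1498 and 1523 CPM in Lin28a+ libraries. Tnnt3, the fast skeletal form, had 7 rows, 2 higher and 3 lower. Its sum was 1796 and 3041 CPM in control against 1723 and 1766 CPM in Lin28a+ libraries, so the control libraries stood further apart than the groups. Zfand3 and Hypk followed Tnnt1 in the number of rows, and Lsp1 was one of several genes that, like Tnnt3, had 7. Hypk, a partner of the N-terminal acetyltransferase NatA, had 8 rows, 3 higher and 3 lower, and sums of 690 and 700 CPM in control against 686 and 703 CPM in Lin28a+ libraries. The rows of Lsp1, an actin-binding protein, were all higher, by 0.51 to 0.84.

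Signalling lists were mixed. Of 26 Wnt ligands, receptors and inhibitors, 12 had no peak, 5 higher and 2 lower, and of the 14 with a peak 1 was higher and 12 lower. Over all no-peak genes 42.0% were higher and 20.6% lower, and over all genes with a peak 20.7% and 50.1%. The receptor gene Fzd4 went from 10.2 and 9.84 CPM to 27.1 and 27.2 CPM (log2 fold change 1.54, SE 0.11, adjusted p = 1.24e-07), and Fzd2 from 120 and 117 CPM to 154 and 158 CPM. Of 30 TGF-beta and BMP genes, 11 had no peak, 5 higher and 5 lower. Nog, a BMP antagonist, rose from 31.7 and 30.7 CPM to 88.1 and 84.4 CPM (log2 fold change 1.57, SE 0.062), while Smad7, an intracellular inhibitor of the pathway, fell from 191 and 195 CPM to 104 and 108 CPM. The RNA of Smad7 fell further, by 1.65. Summed over 5 rows, its m6A-RIP thus rose by 0.89 relative to input (SE 0.11, adjusted p = 0.000492). Its row with the smallest p fell by 1.42 (SE 0.0812), nearer to its RNA.

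Lysosomal genes had 23 of 32 without a peak, 7 higher and 10 lower, with a median of -0.24, and 2 higher and 11 lower in RNA, where DESeq2 called 5 lower. Relative to input 5 of the 23 rose, Ctsa, Lgmn, Sort1, Ctsz and Mcoln1, beside 3.32% over all genes. Ctsd, the aspartic protease cathepsin D, fell from 129 and 123 CPM to 52.3 and 62.3 CPM (log2 fold change -1.03, SE 0.071), and Npc2, which hands on cholesterol, from 654 and 671 CPM to 455 and 470 CPM. Of 207 zinc finger Zfp genes, 106 had no peak, 45 higher and 20 lower, and the 101 with a peak had 13 higher and 63 lower. The no-peak Zfp genes were thus near all no-peak genes, of which 42.0% were higher and 20.6% lower. Of 155 solute carriers, 95 had no peak, 34 higher and 20 lower. With total counts the 2 no-peak lists gave 34 and 22, and 24 and 28, so that the balance of the solute carriers turned. Slc7a5, the transporter of large neutral amino acids, rose from 330 and 316 CPM to 414 and 422 CPM (log2 fold change 0.47, SE 0.041).

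Hox genes had 12 of 14 without a peak, 3 higher and 3 lower, or 1 and 5 with total counts. Hoxb4 fell from 17.8 and 17.0 CPM to 4.55 and 4.43 CPM (log2 fold change -1.85, SE 0.15), and Hoxa10 from 35.6 and 35.3 CPM to 23.0 and 24.5 CPM. Interferon response genes had 14 of 15 without a peak, 5 higher and 4 lower, or 4 and 5 with total counts. H2-D1, a class I antigen-presenting chain, was at 1.60 and 1.41 CPM in control against 11.2 and 10.8 CPM in Lin28a+ libraries. Of 22 genes of the m6A machinery, only Mettl3, Fto and Hnrnpc had no peak, and their m6A-RIP changes were not called (adjusted p of 0.29 for Mettl3, 0.866 for Fto and 0.581 for Hnrnpc). Mettl3, the catalytic subunit of the methyltransferase, was at 47.0 and 52.3 CPM in control against 49.7 and 48.4 CPM in Lin28a+ libraries, and these ranges overlapped.

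**Figure D3:**
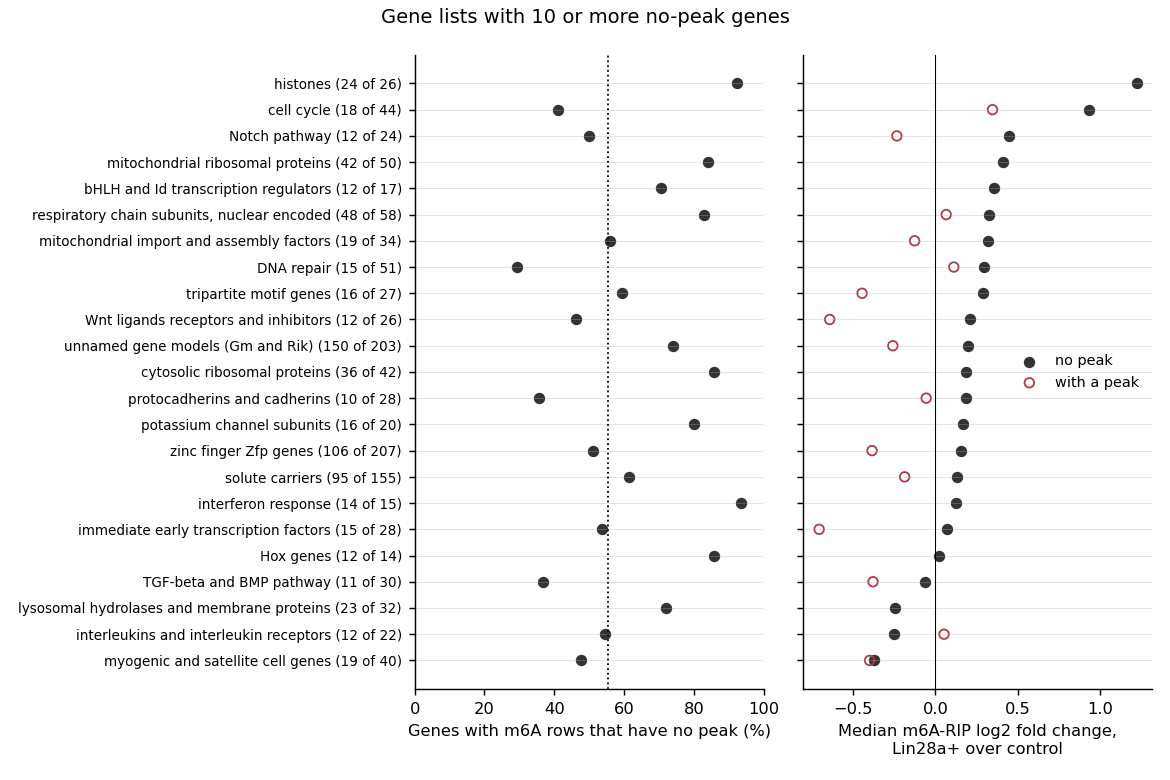
Gene lists with 10 or more no-peak genes; numbers after a name are no-peak genes and all genes with m6A rows. Left: share of the list's genes with no peak, in percent, with the share over all genes (55.5%) as a dotted line. Right: median m6A-RIP log2 fold change, Lin28a+ over control MuSCs, of no-peak genes (filled) and, where at least 10, of genes with a peak (open). Histones stand highest at 1.22, and most open points, those of the Wnt, Zfp and Notch lists among them, lie below 0.

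The rows with the smallest p among those higher in Lin28a+ MuSCs were of genes with diverse roles. The row of Gas1, a membrane-anchored partner of hedgehog, was at 471 and 474 CPM in control against 1390 and 1452 CPM in Lin28a+ libraries (log2 fold change 1.74, SE 0.040, adjusted p = 2.65e-13). Nnat, an imprinted gene for a membrane peptide, went from 6.97 and 8.99 CPM to 75.3 and 72.3 CPM, and its RNA from 1.35 and 1.13 CPM to 8.94 and 8.20 CPM. Mycl, of the Myc family, had 304 and 317 CPM in control against 771 and 776 CPM in Lin28a+ libraries in its row with the smallest p. Scarf2, a scavenger receptor, had its RNA at 0.878 and 1.38 CPM in control against 43.1 and 40.8 CPM in Lin28a+ libraries. The RNA of Bdkrb1, the inducible bradykinin receptor, was at 0.61 and 0.321 CPM and at 9.23 and 7.64 CPM. Such rows were taken only where the groups did not overlap, which in CPM was so for 3632 higher (42.3%) and 2996 lower (34.9%) of the 8581 no-peak rows, beside 29.7% and 50.7% of all m6A rows. In Gas1 and Mycl m6A-RIP relative to input was not called. Nnat, Scarf2 and Bdkrb1 were not called either, but their control input was at no more than 1.38 CPM. Their test rests on few control counts and cannot tell whether m6A-RIP followed RNA.

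The rows with the smallest p among those lower included both transcription factors and structural genes. Lbx1, a homeobox gene of migrating muscle precursors, had 5 rows that summed to 159 CPM in both control libraries and to 4.51 and 3.95 CPM in Lin28a+ MuSCs (log2 fold change -5.14, SE 0.073, adjusted p = 1.01e-13). Its RNA went from 141 and 146 CPM to 3.95 and 4.13 CPM. Sp7, the osteoblast factor osterix, had a row at 94.2 and 90.9 CPM in control against 1.09 and 1.99 CPM in Lin28a+ libraries. Adgrf4, an adhesion receptor, fell from 71.7 and 70.8 CPM to 1.68 and 1.54 CPM in its leading row, and Prss23, a serine protease, from 273 and 267 CPM to 28.5 and 29.6 CPM. Car3, a carbonic anhydrase of muscle, had rows that summed to 3155 and 2976 CPM in control against 752 and 761 CPM in Lin28a+ libraries. Aebp1, a collagen-binding protein, had 6 rows, all lower by between 0.99 and 4.06 on the log2 scale. Malat1, an abundant nuclear lncRNA, was lower in m6A-RIP, with its leading row at 715 and 714 CPM in control against 184 and 179 CPM in Lin28a+ MuSCs. It had no input value.

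**Figure D4:**
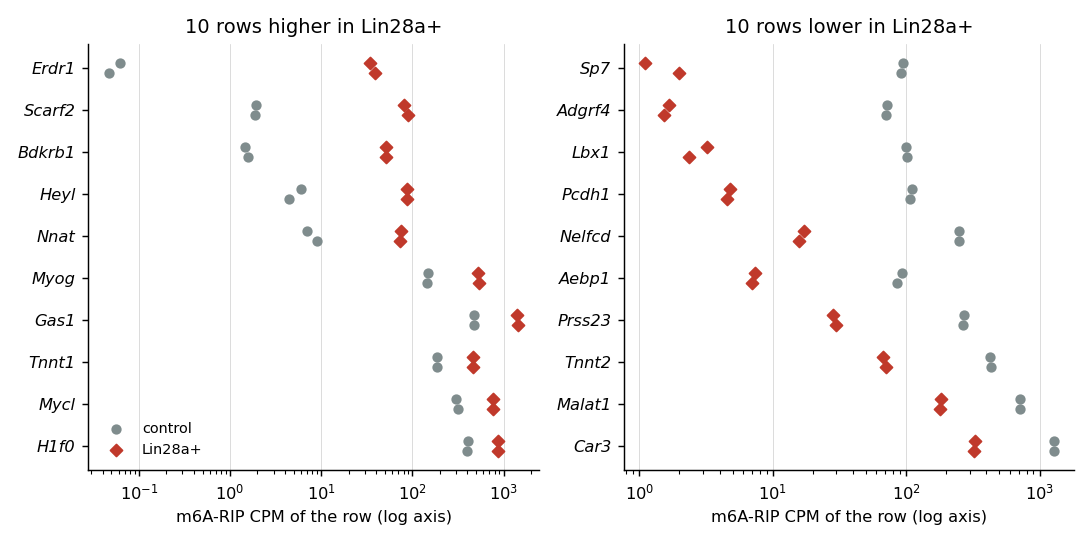
m6A-RIP CPM, on a log axis, of the 10 rows higher (left) and the 10 lower (right) in Lin28a+ MuSCs with the smallest p among no-peak genes; each point is 1 library, grey for control and red for Lin28a+. Rows were taken only where the groups do not overlap, and the control points of the Erdr1 row rest on very few counts.

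Some no-peak genes changed in m6A-RIP without the like change in RNA. Nelfcd, a subunit of the complex that pauses RNA polymerase, had 3 rows that summed to 279 and 271 CPM in control against 45.4 and 42.7 CPM in Lin28a+ libraries. Its RNA stood at 38.5 and 36.9 CPM and at 41.9 and 40.3 CPM, and m6A-RIP relative to input fell by 2.63 (SE 0.0892, adjusted p = 7.33e-08). Fah, the last enzyme of tyrosine breakdown, fell from 14.7 and 14.1 CPM to 0.674 and 0.353 CPM in m6A-RIP, with RNA at 12.5 and 12.2 CPM and at 15.9 and 14.2 CPM. Ube2t, a ubiquitin-conjugating enzyme of the Fanconi pathway, fell from 20 and 19.6 CPM to 1.01 and 0.834 CPM, while its RNA rose from 3.57 and 3.93 CPM to 5.98 and 6.27 CPM. Gng10, a G protein subunit, and Gli2, a hedgehog transcription factor, fell in m6A-RIP and rose in RNA. For Gli2 the m6A-RIP values were 22.1 and 23.7 CPM in control against 8.30 and 7.80 CPM in Lin28a+ libraries, and the RNA values 0.285 and 0.50 CPM and 15.8 and 15.2 CPM. The control RNA of Gli2 rests on few counts, so the size of its RNA change and of its change relative to input is uncertain.

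In the other direction, Mvp, the main protein of vault particles, rose in m6A-RIP from 32.8 and 33.7 CPM to 57.2 and 56.7 CPM, while its RNA fell from 74.9 and 75.3 CPM to 48 and 52 CPM. Relative to input it rose by 1.5 (SE 0.0763, adjusted p = 1.2e-06). Sort1, a sorting receptor of the Golgi, rose from 28.4 and 29.2 CPM to 36.4 and 38.0 CPM, with RNA at 34.5 and 39.5 CPM and at 20.8 and 19.1 CPM. Lmod3, an actin nucleator of sarcomeres, fell in both assays, by 0.45 in m6A-RIP summed over its 4 rows and by 1.53 in RNA. Its row with the smallest p fell by 1.54, so the gap between assays holds for the sum and not for that row. Erdr1 had 0.471 and 0.328 CPM in control against 76.3 and 87.8 CPM in Lin28a+ libraries in m6A-RIP, and its RNA went from 28.2 and 35.7 CPM to 2.93 and 3.21 CPM. Reads of Erdr1 can be shared with near-identical copies, so its values are uncertain.

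The no-peak genes with the most m6A-RIP counts were Gm8579, Hic2, Axin2, Plekha1, Tmsb10, Lars2, Dapk3 and Zc3h10. Gm8579, an unnamed gene model, had 9820 and 10097 CPM in control against 12622 and 11504 CPM in Lin28a+ libraries, and no input value. Hic2, a zinc finger repressor, had 7765 and 6725 CPM in control against 10885 and 9418 CPM in Lin28a+ libraries, with RNA at 5.79 to 7.23 CPM in the 4 input libraries. Axin2, a feedback inhibitor of Wnt signalling, rose in m6A-RIP by 0.33 (SE 0.065, adjusted p = 0.000777) from 6355 and 5595 CPM to 7543 and 6426 CPM, and the RNA of 6.38 and 7.67 CPM fell to 3.47 and 4.10 CPM. Its 3 rows did not move together: the row with the smallest p fell with the RNA, from 18.7 and 16.7 CPM to 7.87 and 7.89 CPM (log2 fold change -1.01, SE 0.131, adjusted p = 1.26e-05). Its change relative to input was not called (adjusted p = 0.14). Whether a row lies on an exon of its gene, in an intron or on another gene's RNA was not checked, since the table gives no positions. Tmsb10, an actin monomer binder, and Lars2, a mitochondrial tRNA ligase, had high counts in both assays. Lars2 had the highest input level of all genes with m6A rows and an input value. Whether the reads counted for Lars2 come from its own mRNA was not checked. The RNA of Lars2 was at 19257 and 20394 CPM in control against 27050 and 25954 CPM in Lin28a+ libraries.

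Among 3710 no-peak genes that reached 10 counts in all libraries of both assays, the m6A level minus the RNA level was highest in Hic2, Axin2, Plekha1, Zc3h10 and Dapk3, from 7.98 to 10.2 on the log2 scale. It was lowest in Rps29, Rps27a, Rpl39, Tbl1x and Ghitm. Rps29, a small ribosomal protein, had 1.92 to 2.36 CPM in m6A-RIP and 1034 to 1365 CPM in the input, a difference of -8.57. Levels of different genes are compared here as counted and not per length. The m6A level of a gene counts only its listed rows, 1 for Rps29, whereas the input level counts the whole gene. The cause of these differences was not tested.

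**Figure D5:**
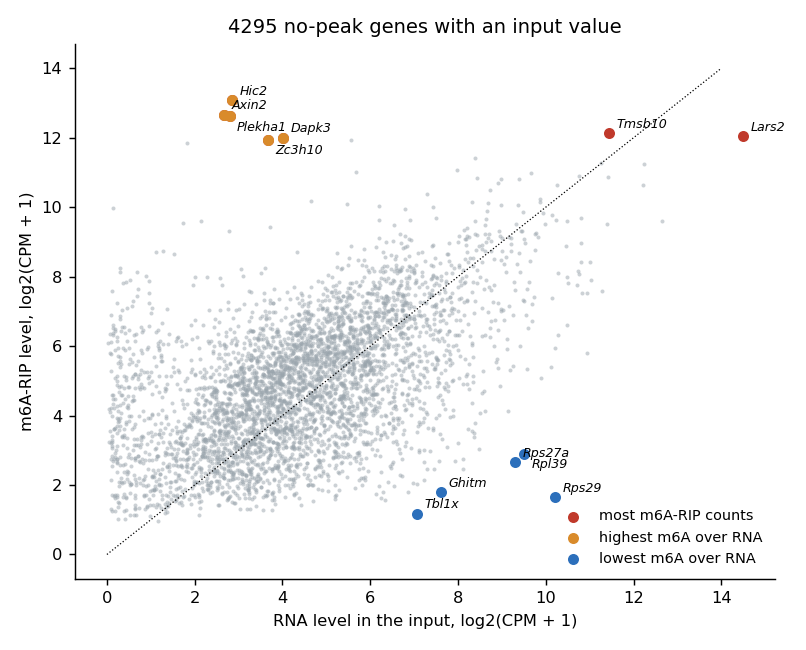
m6A-RIP level against input level of 4295 no-peak genes, both as log2(CPM + 1) averaged over the 4 libraries of each assay; the dotted line marks equal levels. Orange genes have the highest and blue genes the lowest m6A over RNA, and red genes are others among those with the most counts. Hic2 lies 10.2 above and Rps29 8.57 below the line.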

How the data were processed

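The authors deposited read counts per m6A-RIP, Igf2bp3-RIP and Lin28a-RIP peak row, and estimated counts per gene for the input, with HISAT2 2.0.4, MACS2 and DESeq2 named in the methods or processing notes. The counting tool, peak threshold, control and pooling are not given in the sources used here. The methods name GRCh38 although the identifiers are of mouse, and the processing notes name mm10 too.

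Both Lin28a+ m6A columns share 1 name and the Lin28a+ input columns carry names of m6A libraries, so they were assigned to the group with no replicate number. Estimated counts were rounded. Rows, sums per gene, and input genes past edgeR's filter on low counts were tested with edgeR 4.0.16 (R 4.3.3, TMM, quasi-likelihood test, Benjamini-Hochberg adjustment over all features), and both assays together in 1 model with an interaction term for the change relative to input. CPM values are scaled to the table's total without TMM, so a row of equal CPM has a small positive fold change. Spread between libraries (common biological coefficient of variation) was 7.717% for rows and 2.484% for RNA. DESeq2 1.42.0, total counts and leaving out each library were alternatives, and the fits were tested on simulated data.

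Input genes were matched by Ensembl identifier where it gave a single gene, and otherwise by symbol or synonym. Positions and widths of m6A rows and Lin28a itself were not analysed here. The members and the 32 gene lists were chosen with earlier results of these data known. Named genes were the 10 rows in each direction with the smallest p, 1 per gene, the 8 genes with the most counts, the 6 with the most rows, the 5 in each direction relative to input, the 5 with the highest and the 5 with the lowest m6A level over RNA, and for each list the 2 with the most counts and the 2 with the smallest p. Cdkn2c, E2f2, Mymx, H1f4, H2ac10, Ctsa, Lgmn, Ctsz, Mcoln1 and the microRNA genes fell outside this rule and were chosen after their values were seen.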

Additional observations from a re-analysis of the deposited data

How the results depend on the processing

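Scaling by total counts instead of TMM gave a median log2 fold change of 0.053 for no-peak rows (0.21 with TMM), 0.063 for genes in m6A-RIP (0.16), 0.20 for RNA (0.17) and 0.0020 relative to input (0.0074). DESeq2 called 724 no-peak genes higher and 385 lower in RNA (1512 and 762 with edgeR; median 0.16) and 78 higher and 69 lower relative to input (123 and 123; median 0.015). Leaving out 1 library at a time gave 3125 to 3270 rows higher, 1358 to 1439 lower and a median of 0.198 to 0.217. For genes in m6A-RIP it gave 2024 to 2042 higher, 985 to 1013 lower and 0.154 to 0.173. For RNA the ranges were 1269 to 1325, 630 to 699 and 0.157 to 0.167, and relative to input 71 to 142, 61 to 136 and 0.0024 to 0.0105. The median level of no-peak rows was 4.02 over rows with at least 10 counts in all libraries, and 3.91 with a pseudocount of 0.1 CPM, which gave 4.07 for genes with a peak. The m6A level over RNA was 0.31 for no-peak genes and 0.64 for genes with a peak under the same minimum of 10 counts. Matching by transcript in place of gene left 5624 genes with no peak, and counting only peaks with at least 100 counts 5523. Of 924 alternative values for named genes, 896 kept direction and call, 27 lost the call and 1 reversed: Hypk, at -0.0017 with total counts. The cause of these shifts was not tested. No paired analysis was possible because both Lin28a+ columns of the m6A table carry 1 name, and the numbered names of the Lin28a+ input columns are those of m6A libraries, so no replicate number of these samples could be assigned. No row fell under the filter, so leaving it off changed nothing for m6A rows. Input libraries were shallower than m6A-RIP libraries, so low RNA levels rest on few counts.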
